A study of Homo sapiens with 26 samples.

Results

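The response of airway epithelial cells to raised glucose was compared between a line with wild-type CFTR and a line carrying DeltaF508 CFTR, gene by gene. For each gene the log2 fold change from normal to high glucose was taken in each line, and the WT value was subtracted from the CF value. This quantity is called the response difference: it is below 0 where high glucose lowered a gene more, or raised it less, in CF than in WT cells. All 23 Transwell libraries of 26 in the series entered, and 16338 of 58735 genes had enough reads to be tested.

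The cells were the human bronchial epithelial line 16HBE14o- (WT) and 16HBEge, a line derived from it by gene editing, with the DeltaF508 genotype and labelled CF. Cells were plated on permeable Transwell supports at 250000 cells per well and kept in medium with 5.5 mM glucose (normal) or 17.5 mM glucose (high) for 7 days, with the medium changed daily. The WT line gave 6 libraries in normal and 5 in high glucose, and the CF line gave 6 in each. The 3 libraries of WT cells labelled as not polarized are not analysed here. Each library pooled 2 Transwells, and nothing in the labels says whether libraries came from separate cultures, so p-values measure only the spread between these libraries. Each genotype was 1 line, so genotype and line cannot be told apart. In bulk RNA, fewer cells of a type and less RNA per cell cannot be told apart either.

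CFTR conducts chloride and bicarbonate across the airway epithelium, and the DeltaF508 protein is misfolded and largely kept from the cell membrane. Epithelial cells sense glucose in part through MondoA and ChREBP, factors that switch on TXNIP and ARRDC4, arrestins that restrain glucose uptake. Hypoxia-inducible factor drives glycolytic and angiogenic genes, the YAP and TEAD factors drive CTGF and other adhesion-linked genes, and perilipins coat the lipid droplets in which cells store fat.

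Depth ranged from 14658319 to 20413839 counted reads per library. Libraries numbered 4 to 6 in their titles had a lower share of ribosomal protein reads than those numbered 1 to 3 in every group, the extremes over all libraries being 2.55% and 5.03%. The labels do not say what the numbers stand for. The model therefore had a term for the number set, 1 to 3 against 4 to 6. Epithelial genes were high (KRT8 averaged 2074 CPM, counts scaled to the size of the library, and EPCAM 596 CPM), whereas NKX2-1, a lung lineage factor, had no count in any library and TP63, a basal cell factor, averaged 0.48 CPM. Of the 8 secretory cell markers none reached 1 CPM on average, and their summed level lay between 0.195 and 1.52 CPM in every library. FOXJ1, the ciliated cell factor, averaged 0.33 CPM, although 7 of the 13 ciliated cell markers reached 1 CPM on average. The highest of these was TUBB4B, at 565 CPM. The ionocyte factor FOXI1 averaged 8.06 CPM, but only 2 of the 5 ionocyte markers reached 1 CPM on average, and ASCL3 averaged 0.006 CPM. Leukocyte PTPRC (0.027 CPM) and endothelial PECAM1 (0.057 CPM) were near 0. Other markers of such cells were measured: leukocyte ITGAM (5.38 CPM), endothelial CDH5 (18.7 CPM) and KDR (17.0 CPM), and fibroblast COL1A1 (27.3 CPM). These were the exceptions: 1 of 10 leukocyte, 2 of 7 endothelial and 1 of 8 fibroblast markers reached 1 CPM on average. Of 55 pairs of libraries within groups, none held identical values or agreed within sampling noise.

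The glucose treatment was visible in both lines. TXNIP rose in each: it stood at 217, 287 and 353 CPM (lowest, median and highest of 6) in WT cells in normal glucose and at 657, 731, 705, 618 and 629.8 CPM in the 5 WT libraries in high glucose. In CF cells the values were 160.1, 235 and 373 CPM in normal and 886, 940.1 and 998 CPM in high glucose. No library of either line overlapped between the glucose levels. Its log2 response was 1.17 ± 0.15 (SE) in WT and 1.96 ± 0.15 in CF. The response difference, 0.79 ± 0.21, missed the threshold (edgeR quasi-likelihood test, adjusted p = 0.084), as did that of ARRDC4 (0.63 ± 0.20, adjusted p = 0.173). KLF10, a glucose-induced transcription factor, rose by 0.61 in WT and 0.78 in CF, with a difference of 0.17 ± 0.09 (adjusted p = 0.467).

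CFTR itself fell in CF cells, with a log2 response of -0.22 ± 0.05 (adjusted p = 0.00105), and its value in WT cells was -0.09 ± 0.05 (adjusted p = 0.329). It was measured at 694 ± 17.5 CPM (SD, n = 6) in WT in normal and 659 ± 40.5 CPM (n = 5) in high glucose, and at 755 ± 73.3 and 647 ± 63.6 CPM (n = 6 each) in CF. The difference between the responses was -0.14 ± 0.07 and did not pass the test (adjusted p = 0.452). Gene counts do not distinguish the mutant from the wild-type transcript.

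Taking each line alone, 1418 genes changed with glucose in WT, or 8.68% of those tested, and 2812 in CF, or 17.2%. The response difference passed an adjusted p of 0.05 for 146 genes, which is 0.894% of those tested. Of these, 76 (0.465%) had a difference below 0 and 70 (0.428%) a difference above 0. Without adjustment, 1970 genes had p under 0.05. The sizes were small: the median absolute difference was 0.38 on the log2 scale for the 76 genes and 0.43 for the 70, and 5 genes passed a 2-fold difference, all above 0. Over all tested genes the median difference was 0.00262 and the median SE was 0.122.

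**Figure D1:**
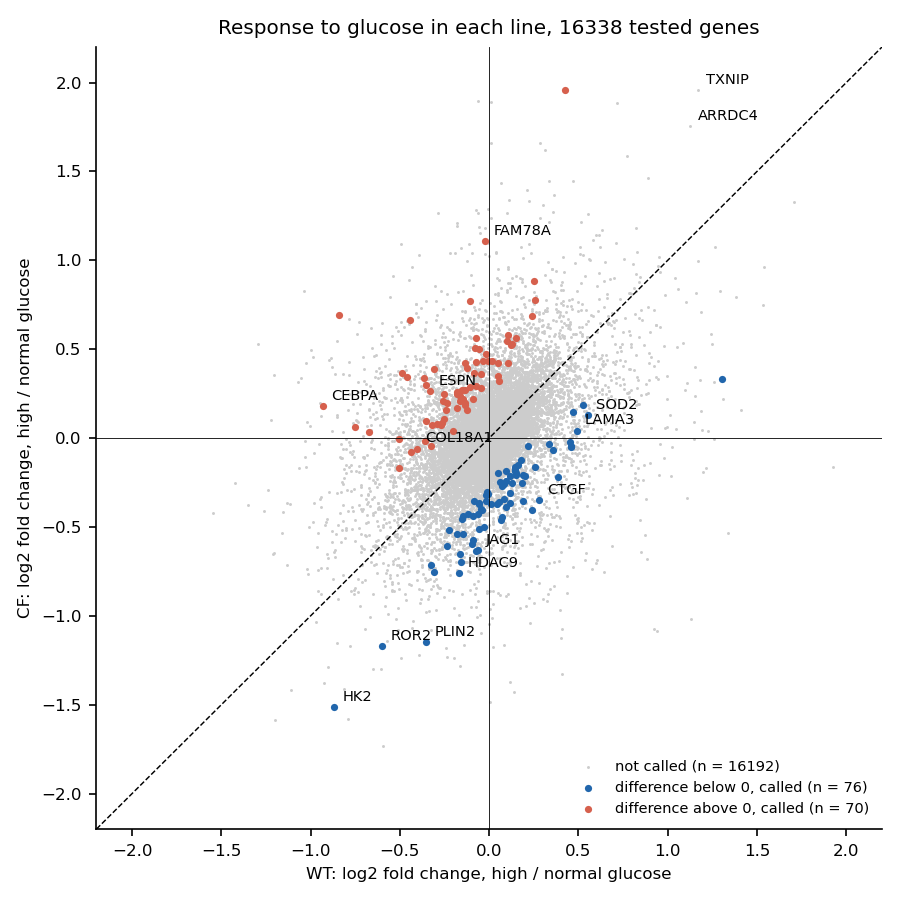
Log2 fold change from normal to high glucose in WT cells (x axis) and CF cells (y axis) for 16338 genes. Points are genes, grey where the response difference was not called, blue (76 genes) where it was called below 0 and red (70 genes) where it was called above 0. The dashed line marks equal responses. Called genes lie away from that line, and many lie near an axis, with a response close to 0 in 1 line.

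Responses called in both lines with opposite signs were few, 3 of the 76 genes below 0 and 5 of the 70 above. By the sign of the fitted values alone, called or not, the counts were higher. Of the 76 genes below 0, the fitted responses had opposite signs for 39, the same sign and a larger size in CF for 32, and a larger size in WT for 5. For the 70 genes above 0 these counts were 50, 14 and 6. Most were called for glucose in only 1 line: 53 of the 76 in CF alone, 11 in WT alone and 12 in both. Of the 70 genes, 42 were called in CF alone, 19 in WT alone, 7 in both and 2 in neither. The gap between CF and WT cells was narrower in high than in normal glucose for 48 of the 76 and 43 of the 70 genes. Selection on the difference between the fitted responses itself favours opposite signs. Signs and gaps were not counted over all tested genes, so these counts only describe the called genes.

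These counts moved with the model and with base composition. Without the term for library numbers, 6 genes were called: PLIN2, CTGF, HDAC9, FHL2, APCDD1 and MMP15. In libraries numbered 1 to 3 alone, 1 gene was called, and it was not among the 146; in libraries 4 to 6 alone, 387 were called (270 below 0 and 117 above), 94 of them among the 146. Genes called below 0 had a median GC content of 43.3% and those called above 0 of 61.6%, against 48.9% over all tested genes. With gene-wise offsets for GC content and length, an alternative chosen after seeing the data, 73 genes were called, 55 below 0 and 18 above, and 53 of the 146 remained. With a block for each library number, 73 genes were called (43 below 0 and 30 above), and with both the block and the offsets 23. Leaving out 1 library gave between 61 calls (without WT high glucose library 3) and 326 (without CF normal glucose library 3). The part of GC content and of the number sets in the differences was not tested. All 146 kept their sign under the GC and length offsets, which the selection on the same libraries largely fixes.

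**Figure D2:**
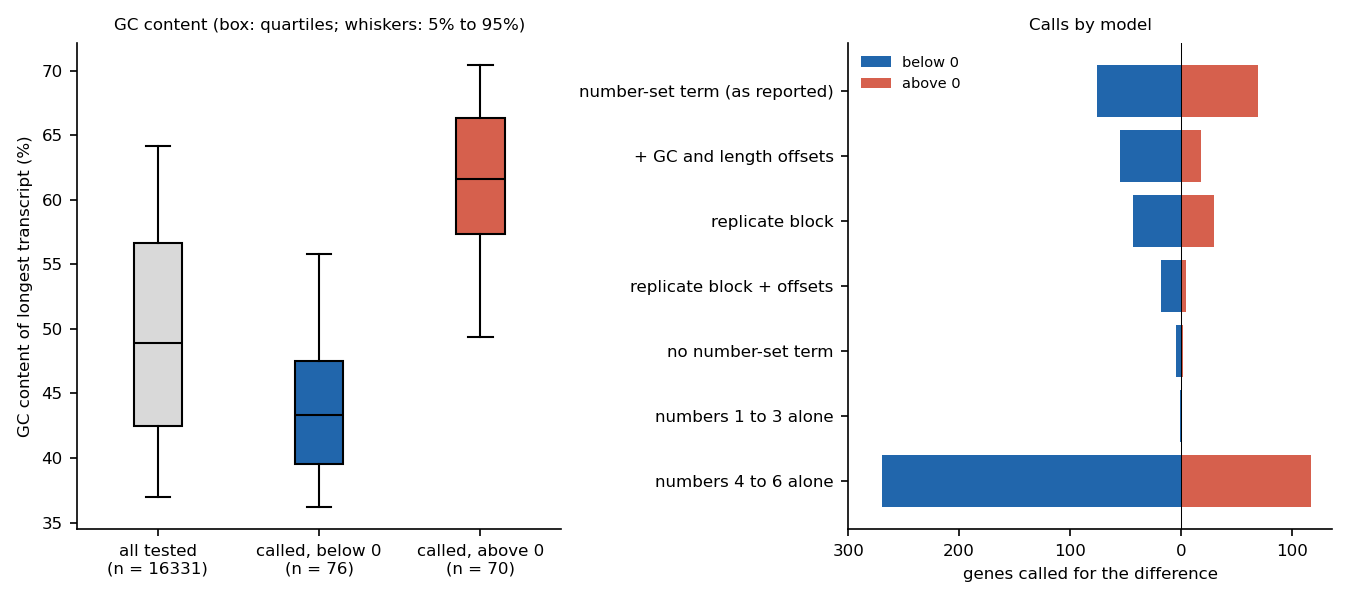
Left, GC content of the longest transcript (%) for all tested genes and for genes called below and above 0: the line is the median, the box the quartiles and the whiskers the 5% and 95% points. Right, genes called for the response difference under 7 models, with bars to the left for differences below 0 and to the right for those above 0: 76 and 70 as reported, 55 and 18 with GC and length offsets.

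Genes of fat and glucose handling were found at both ends of the contrast. The lowest p-value belonged to PLIN2 (chr9:19108375-19149290, GRCh38), the main coat protein of lipid droplets. It was measured at 30.2, 36.0 and 39.8 CPM (lowest, median, highest) in WT in normal glucose and at 25.7, 26.5, 25.1, 28.9 and 29.6 CPM in WT in high glucose. In CF cells it stood at 66.4, 82.4 and 103 CPM in normal and 35.8, 36.4 and 44.3 CPM in high glucose. Every CF library was above every WT library at the same glucose level, and in both lines the high glucose libraries were all below the normal ones. PLIN2 fell by 0.35 in WT and by 1.15 in CF on the log2 scale, a difference of -0.79 ± 0.11 (adjusted p = 0.000585). It kept that call with the GC and length offsets (adjusted p = 0.00134).

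HK2, the hexokinase that traps glucose in the cell, fell in both lines and more in CF. Its values were 310.1, 391 and 476 CPM in WT in normal glucose, 161, 225, 197, 213 and 232 CPM in WT in high glucose, 506, 666 and 858 CPM in CF in normal and 199.5, 224 and 289 CPM in CF in high glucose. CF libraries were all above WT libraries in normal glucose and overlapped them in high glucose. The response was -0.87 ± 0.11 in WT and -1.52 ± 0.10 in CF, a difference of -0.65 ± 0.14 (adjusted p = 0.0336, and 0.0613 with GC and length offsets). Of 28 genes tested in the glycolysis and glucose transport list HK2 was the only call, against 0.894% of all tested genes. The median difference of the list was -0.03. The glucose transporters SLC2A1 (-0.16, adjusted p = 0.552) and SLC2A3 (-0.16, adjusted p = 0.383) fell in both lines, and their differences did not pass.

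PPP1R3B, a subunit that directs protein phosphatase 1 to glycogen, showed no called response in WT (0.07 ± 0.06) and fell in CF (-0.45 ± 0.06). It was measured at 82.3, 100.2 and 119 CPM in WT in normal and 88.4, 100.3, 95.4, 113 and 117 CPM in high glucose, and at 67.0, 79.3 and 90.6 CPM in CF in normal and 52.3, 56.7 and 64.2 CPM in high glucose. CF libraries were below all WT libraries in high glucose alone, and the response difference was -0.52 ± 0.09 (adjusted p = 0.0018). SREBF1, a factor that drives lipid synthesis, moved the other way: it fell in WT (-0.44 ± 0.06) with a value of -0.08 ± 0.06 in CF, a difference of 0.36 ± 0.08 (adjusted p = 0.0267, and 0.172 with GC and length offsets). It was the 1 called gene of 33 in the sterol and fatty acid list, against 0.894% of all tested genes. PLIN5, a perilipin that links droplets to mitochondria, had the other call of the 29 lipid droplet genes, against the same 0.894%. Its difference was 1.54 ± 0.39 (adjusted p = 0.0447), at levels of only 1.38 ± 0.292 and 0.751 ± 0.363 CPM in WT and 0.811 ± 0.289 and 1.33 ± 0.225 CPM in CF (normal and high glucose, mean ± SD, n = 6, 5, 6 and 6). Neither line's response in PLIN5 was called, and its call was lost with GC and length offsets (adjusted p = 0.0797).

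**Figure D3:**
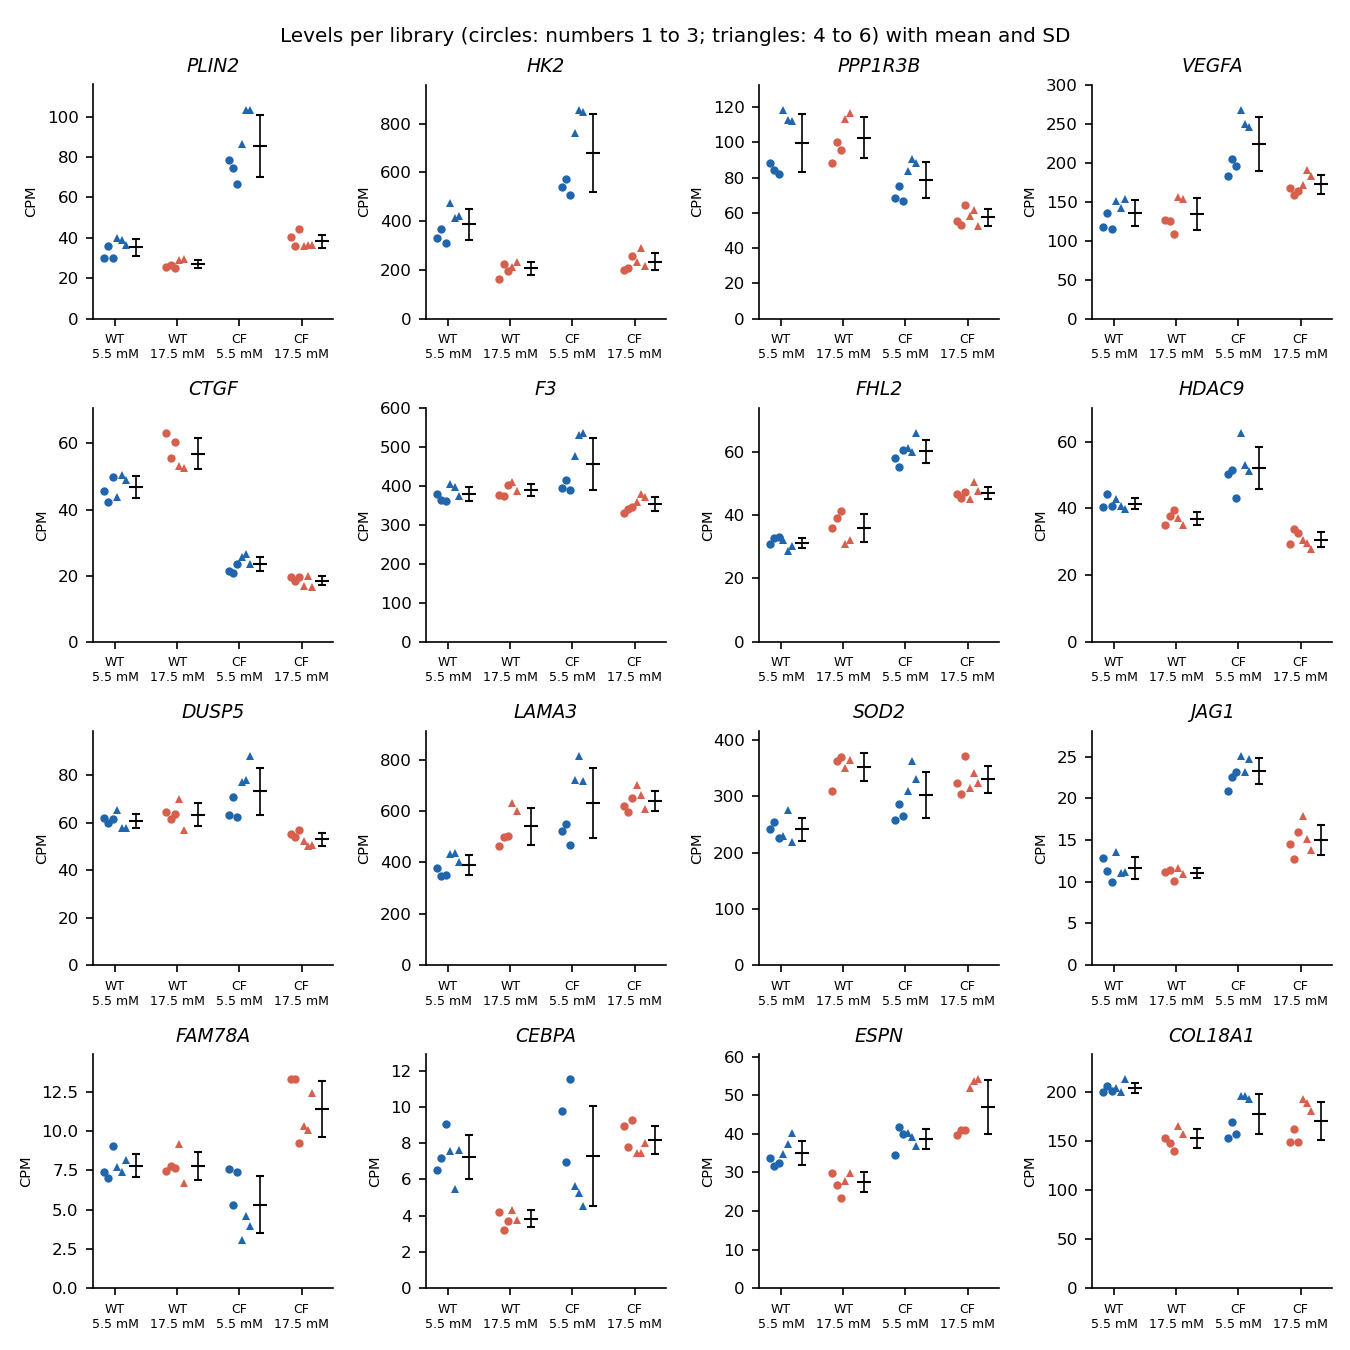
CPM per library for 16 genes in WT and CF cells in 5.5 mM (blue) and 17.5 mM (red) glucose. Circles are libraries numbered 1 to 3 and triangles those numbered 4 to 6; bars show mean and SD (n = 6, 5, 6 and 6). In CF normal glucose, libraries 4 to 6 often stand above libraries 1 to 3, as for PLIN2, HK2 and LAMA3, and below them for FAM78A and CEBPA.

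Hypoxia-linked genes had the lowest median of the pathway lists. Of 29 tested, 4 were called below 0 and none above, against 0.465% and 0.428% of all tested genes. Of the 29, 25 had a difference below 0, and the median was -0.27 against 0.00262 over all genes. In CF cells 21 of the 29 fell with glucose and 1 rose, and in WT cells 11 fell and 1 rose. Over all tested genes 17.2% were called for glucose in CF and 8.68% in WT, in either direction. The 4 were ERO1A, VEGFA, INSIG2 and BNIP3L, and with GC and length offsets 1 of the 29 was called, VEGFA.

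ERO1A, which passes oxidizing equivalents to protein disulfide isomerase in the ER, was measured at 1417, 1563 and 1827 CPM in WT in normal glucose and at 1589, 1861, 1602, 1272 and 1413 CPM in WT in high glucose. The values in CF were 2824, 3006 and 3149.8 CPM in normal and 1902, 2070.3 and 2584 CPM in high glucose. WT libraries overlapped between glucose levels, whereas CF libraries in high glucose were all below those in normal glucose. The responses were -0.06 ± 0.06 in WT and -0.51 ± 0.06 in CF, a difference of -0.45 ± 0.09 (adjusted p = 0.00615, and 0.0777 with GC and length offsets). VEGFA, the angiogenic growth factor, had responses of 0.01 ± 0.06 and -0.37 ± 0.05 and a difference of -0.38 ± 0.08 (adjusted p = 0.00803). Its CF libraries were above all WT libraries at both glucose levels. INSIG2, an ER protein that retains the SREBP complex, was measured at 78.9 ± 3.75 CPM in CF in normal and 50.8 ± 4.04 CPM in high glucose (n = 6 each), against 56.7 ± 9.99 (n = 6) and 54.9 ± 12.8 CPM (n = 5) in WT. Its difference was -0.56 ± 0.13 (adjusted p = 0.0323). BNIP3L, a mitophagy receptor, fell in CF (-0.46 ± 0.05) and had a value of -0.15 ± 0.06 in WT, with a difference of -0.30 ± 0.08 (adjusted p = 0.0402).

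The promoters of ERO1A and INSIG2 show the letters that hypoxia-inducible factor is known to recognize. The windows run from 250 bases before to 50 after the gene start (RefSeq, GRCh38.p14, 5′ to 3′ on the gene's strand), and capitals mark ACGTG or GCGTG on either strand. ERO1A lies at chr14:52695509-52695808 on the minus strand with 3 matches, and INSIG2 at chr2:118088221-118088520 on the plus strand with 2.

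ERO1A: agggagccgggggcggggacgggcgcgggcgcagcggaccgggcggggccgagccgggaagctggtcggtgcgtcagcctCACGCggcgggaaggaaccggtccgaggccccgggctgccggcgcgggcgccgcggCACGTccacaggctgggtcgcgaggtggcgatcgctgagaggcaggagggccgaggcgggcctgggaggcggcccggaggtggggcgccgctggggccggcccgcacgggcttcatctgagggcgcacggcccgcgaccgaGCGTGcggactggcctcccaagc
INSIG2: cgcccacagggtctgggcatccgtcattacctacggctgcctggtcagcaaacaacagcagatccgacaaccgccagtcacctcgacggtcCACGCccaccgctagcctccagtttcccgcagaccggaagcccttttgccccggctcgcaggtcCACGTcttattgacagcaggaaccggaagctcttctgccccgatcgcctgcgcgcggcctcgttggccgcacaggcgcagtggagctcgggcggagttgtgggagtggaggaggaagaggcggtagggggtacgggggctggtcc

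Such a match stood in 48.4% of 35116 promoters, in 42 of 62 matched promoters of genes called below 0 and in 22 of 51 of those called above 0. The 35116 promoters were not limited to tested genes, and the share over tested genes alone is not given. These shares therefore cannot show whether the match is more frequent among called genes than among tested genes. A match is a description and not a binding site.

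Called genes included targets and regulators of YAP and TEAD and genes of cell adhesion. CTGF (chr6:131948176-131951373), a secreted matrix-associated protein and YAP target, rose in WT and fell in CF. It was measured at 42.2, 47.3 and 50.5 CPM in WT in normal glucose and at 63.2, 55.5, 60.3, 53.0 and 52.4 CPM in WT in high glucose. In CF it stood at 20.9, 23.5 and 26.5 CPM in normal and 16.7, 19.0 and 19.96 CPM in high glucose. The 2 glucose levels did not overlap in either line, and CF was below WT throughout. The responses were 0.28 ± 0.07 and -0.35 ± 0.07, a difference of -0.63 ± 0.10 (adjusted p = 0.000807, and 0.000283 with GC and length offsets). The difference was -0.58 in libraries 1 to 3 and -0.66 in libraries 4 to 6.

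F3, tissue factor, had a value of 0.06 ± 0.05 in WT and fell in CF (-0.36 ± 0.05), from 391, 447 and 537 CPM to 332, 353 and 379 CPM. The WT values were 362, 377 and 406 CPM in normal and 378, 374, 403, 412 and 388 CPM in high glucose. The difference was -0.42 ± 0.07 (adjusted p = 0.00172). STK4, a Hippo pathway kinase, had a difference of -0.25 ± 0.06 (adjusted p = 0.0396). TEAD2, a DNA-binding partner of YAP, had one of 0.45 ± 0.11 (adjusted p = 0.0443). Thus 3 genes of 36 in the YAP and TEAD list were called below 0 and 1 above, against 0.465% and 0.428% of all tested genes. The median of the list was -0.05, and with GC and length offsets 2 were called, CTGF and F3. The calls of STK4 and TEAD2 were lost with these offsets (adjusted p = 0.119 and 0.116). Of 23 fits that each left out 1 library, STK4 lost its call in 11 and TEAD2 in 18. Over the whole list 23 genes had a difference below 0 and 13 above.

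The promoters of CTGF (listed as CCN2 in RefSeq) and F3 were read for GGAATG, the TEAD motif, on both strands, shown in capitals. CTGF lies at chr6:131951323-131951622 on the minus strand with 3 matches, and F3 at chr1:94541710-94542009 on the minus strand with none in this window.

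CTGF: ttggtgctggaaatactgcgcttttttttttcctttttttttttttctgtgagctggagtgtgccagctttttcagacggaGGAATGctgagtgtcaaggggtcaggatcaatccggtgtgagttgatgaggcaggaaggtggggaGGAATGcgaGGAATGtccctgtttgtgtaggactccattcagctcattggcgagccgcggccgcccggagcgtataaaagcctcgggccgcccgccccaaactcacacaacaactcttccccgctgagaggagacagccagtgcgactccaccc
F3: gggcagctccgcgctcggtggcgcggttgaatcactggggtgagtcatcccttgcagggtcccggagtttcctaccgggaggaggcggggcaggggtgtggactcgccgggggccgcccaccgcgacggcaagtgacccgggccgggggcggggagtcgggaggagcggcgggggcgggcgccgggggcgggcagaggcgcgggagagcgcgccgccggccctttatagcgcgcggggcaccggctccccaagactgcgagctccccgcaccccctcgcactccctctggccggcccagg

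The motif stood in 14.03% of the 35116 promoters, in 4 of 62 of the genes called below 0 and in 3 of 51 of those called above 0. The 35116 were again not limited to tested genes.

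FHL2, a LIM domain protein of focal adhesions and the nucleus, was measured at 28.6, 31.3 and 32.9 CPM in WT in normal and 35.8, 39.0, 41.4, 31.0 and 32.1 CPM in high glucose. In CF it went from 55.0, 60.3 and 65.9 CPM to 45.1, 46.9 and 50.3 CPM, with no overlap. The responses were 0.19 ± 0.07 (adjusted p = 0.0601) and -0.35 ± 0.06, a difference of -0.55 ± 0.09 (adjusted p = 0.00095). FERMT2 (kindlin-2), which activates integrins, had a difference of -0.31 ± 0.07 (adjusted p = 0.0267, and 0.103 with GC and length offsets). FHL2 and FERMT2 were the 2 calls of 34 focal adhesion genes, against 0.894% of all tested genes. PHLDB2, which anchors microtubules at the basal cell cortex, rose in WT (0.26 ± 0.05) and fell in CF (-0.17 ± 0.04). Its difference was -0.42 ± 0.06 (adjusted p = 0.000585), although libraries of the 2 glucose levels overlapped in both lines.

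LAMA3, a laminin chain of the epithelial basement membrane, was measured at 346, 391 and 437 CPM in WT in normal glucose and 464, 500.4, 505, 633 and 599.6 CPM in high glucose, and at 469.9, 633 and 815 CPM in CF in normal and 595, 636 and 701 CPM in high glucose. It rose in WT (0.49 ± 0.07) without overlap and had a value of 0.04 ± 0.06 in CF, a difference of -0.45 ± 0.09 (adjusted p = 0.00991). That difference was -0.18 in libraries 1 to 3 and -0.74 in libraries 4 to 6, and the CF normal glucose libraries 4 to 6 held the highest values. ITGA2, the alpha chain of a collagen receptor, rose in WT (0.45 ± 0.08) and had a value of -0.02 ± 0.08 in CF, with a difference of -0.47 ± 0.11 (adjusted p = 0.0368, and 0.151 with GC and length offsets). They were among the 3 calls, all below 0, in 33 integrin, hemidesmosome and basement membrane genes, against 0.465% of all tested genes. The median difference of these 33 was 0.00 (17 below 0 and 16 above).

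COL18A1, a basement membrane collagen, moved the opposite way. It was measured at 200.4, 203 and 213 CPM in WT in normal glucose and at 153, 148, 139.7, 166 and 157 CPM in high glucose, with no overlap. In CF it stood at 153, 182 and 197 CPM in normal and at 149, 171 and 194 CPM in high glucose, which overlapped. The difference was 0.34 ± 0.07 (adjusted p = 0.00991, and 0.143 with GC and length offsets). The proteoglycan GPC1 (0.35 ± 0.07, adjusted p = 0.00571) and the matrix protein VWA1 (0.37 ± 0.08, adjusted p = 0.00981) likewise fell in WT without a call in CF. Both calls were lost with the offsets (adjusted p = 0.169 and 0.133).

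Cell junction and ion transport genes were called at about the share of all tested genes (0.894%). None of 29 tight junction genes, none of 31 ion and fluid transport genes and 1 of 26 adherens junction and desmosome genes was called. That gene, NECTIN1, an adhesion receptor, rose in CF (0.53 ± 0.07) with a value of 0.13 ± 0.07 in WT, a difference of 0.40 ± 0.10 (adjusted p = 0.0333, and 0.128 with GC and length offsets). The claudins CLDN1 (-0.15 ± 0.07, adjusted p = 0.342) and CLDN4 (0.12 ± 0.08, adjusted p = 0.612), occludin OCLN (-0.20 ± 0.07, adjusted p = 0.156), ZO-1 TJP1 (-0.04 ± 0.08, adjusted p = 0.904) and E-cadherin CDH1 (-0.03 ± 0.06, adjusted p = 0.912) did not pass. OCLN fell in CF (-0.26 ± 0.05, adjusted p = 6.95e-05) and CLDN1 rose in both lines. SGK1, a kinase that acts on sodium channels, rose by 1.16 in WT and by 0.82 in CF, and its difference of -0.34 ± 0.17 did not pass (adjusted p = 0.434).

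**Figure D4:**
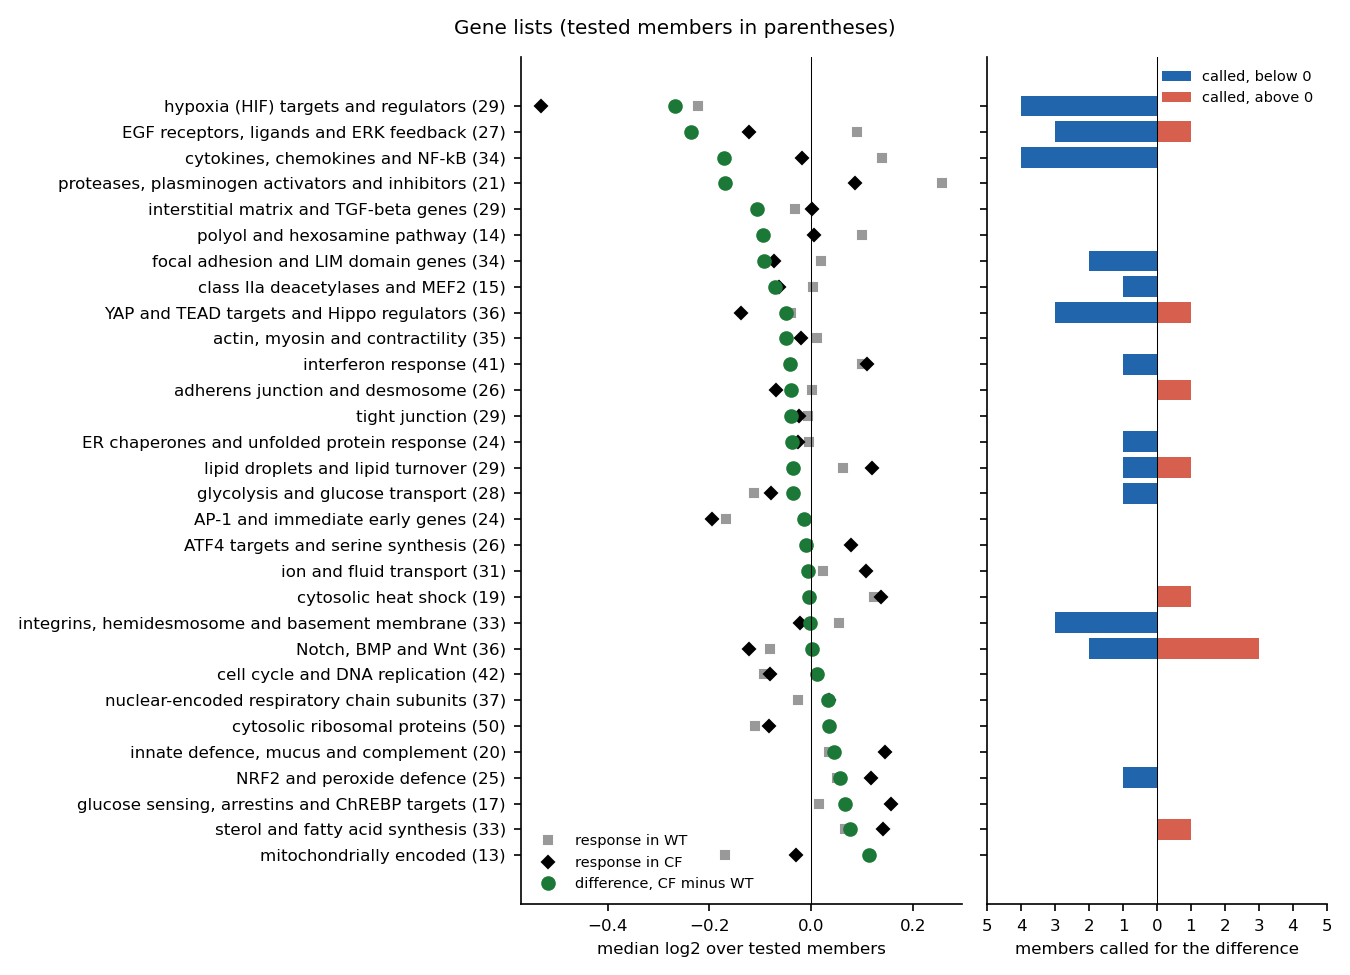
Median log2 value over the tested members of each pathway list (left; grey squares, response in WT; black diamonds, response in CF; green circles, response difference) and number of members called for the difference below or above 0 (right). Hypoxia genes have the lowest median difference (-0.27), followed by the EGF and ERK list (-0.24) and the cytokine list (-0.17).

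Growth factor feedback and inflammatory genes leaned below 0. In the EGF receptor and ERK list 3 of 27 genes were called below 0 and 1 above, against 0.465% and 0.428% of all tested genes. Of the 27, 20 had a difference below 0, and the median was -0.24, or -0.13 in libraries 1 to 3 and -0.36 in libraries 4 to 6. With GC and length offsets 3 and 1 were called again, and without the term for library numbers none was. DUSP5, a phosphatase that shuts off nuclear ERK, was measured at 57.7, 60.6 and 65.3 CPM in WT in normal and 64.7, 61.6, 63.5, 70.0 and 57.0 CPM in high glucose. In CF it fell from 62.2, 74.0 and 88.1 CPM to 49.97, 53.0 and 56.9 CPM. WT libraries overlapped and CF libraries did not, and the difference was -0.53 ± 0.09 (adjusted p = 0.0018). PHLDA1, which is induced by ERK signalling, fell in CF (-0.31 ± 0.06; difference -0.43 ± 0.08, adjusted p = 0.00359). HBEGF, a ligand of the EGF receptor, rose in WT (0.38 ± 0.10) with a value of -0.22 ± 0.10 in CF (difference -0.60 ± 0.15, adjusted p = 0.0324). The receptor ERBB2 fell in WT (-0.20 ± 0.04) with a value of 0.04 ± 0.04 in CF, a difference of 0.24 ± 0.06 (adjusted p = 0.0333). Of 23 fits that each left out 1 library, ERBB2 lost its call in 16 and HBEGF in 8, whereas DUSP5 and PHLDA1 kept theirs in all. MAP4K4, a kinase upstream of JNK, fell in CF with a difference of -0.42 ± 0.08 (adjusted p = 0.00262).

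Of 34 cytokine, chemokine and NF-kB genes, 4 were called below 0 and none above, against 0.465% and 0.428% of all tested genes. A difference below 0 was found for 29 of the 34 (median -0.17). That median was -0.06 in libraries 1 to 3 and -0.35 in libraries 4 to 6. IL1A, an alarmin cytokine, was measured at 123, 133 and 149.5 CPM in WT in normal and at 143, 173, 161, 152 and 142 CPM in high glucose, and at 132, 148 and 156 CPM in CF in normal and 109, 125 and 145 CPM in high glucose. It rose in WT (0.20 ± 0.06, adjusted p = 0.0379) and fell in CF (-0.21 ± 0.06, adjusted p = 0.0107), with overlapping libraries in each line, and the difference was -0.42 ± 0.09 (adjusted p = 0.0118). The other calls were BIRC3, an inhibitor of apoptosis (-0.35 ± 0.08), LIF, a cytokine of the interleukin 6 family (-0.37 ± 0.08), and IL6 (-0.51 ± 0.12), at adjusted p of 0.0148, 0.0233 and 0.0338. LIF fell in CF, IL6 rose in WT, and with GC and length offsets IL1A and LIF were still called. SOD2, the mitochondrial superoxide dismutase, was the 1 call of 25 in the NRF2 and peroxide defence list, against 0.894% of all tested genes. It rose in WT from 219, 236 and 276 CPM to 309, 363, 371, 351 and 365 CPM without overlap. In CF it went from 259, 298 and 363 CPM to 304, 324 and 372 CPM, which overlapped. The difference was -0.42 ± 0.10 (adjusted p = 0.03, and 0.273 with GC and length offsets). DDX60, an antiviral helicase, was the 1 call of 41 interferon response genes, against the same 0.894%. It rose by 0.53 in WT and by 0.19 in CF (difference -0.34 ± 0.08, adjusted p = 0.0333, and 0.0683 with GC and length offsets).

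Among 36 Notch, BMP and Wnt genes, 2 were called below 0 and 3 above, against 0.465% and 0.428% of all tested genes. The median was 0.00. ROR2, a receptor for WNT5A, fell in both lines: from 39.2, 43.8 and 45.8 CPM to 31.9, 27.5, 30.8, 25.8 and 26.5 CPM in WT, and from 22.6, 27.9 and 28.9 CPM to 9.16, 12.1 and 13.9 CPM in CF. Neither line overlapped between glucose levels, and the difference was -0.57 ± 0.11 (adjusted p = 0.00571). The Notch ligand JAG1 had a value of -0.06 ± 0.09 in WT and fell by 0.63 in CF, from 20.8, 23.1 and 25.1 CPM to 12.7, 14.8 and 17.9 CPM. WT cells held 9.93, 11.2 and 13.5 CPM in normal and 11.1, 11.4, 10.1, 11.6 and 10.9 CPM in high glucose, below CF at each glucose level. Its difference was -0.56 ± 0.12 (adjusted p = 0.0108). A second Notch ligand, JAG2, differed in the other direction (0.34 ± 0.08, adjusted p = 0.0368), as did the ligands BMP5 (0.63 ± 0.16, adjusted p = 0.0339) and WNT10A (0.34 ± 0.09, adjusted p = 0.0414). With GC and length offsets ROR2, JAG1 and BMP5 were still called, whereas JAG2 (adjusted p = 0.282) and WNT10A (adjusted p = 0.436) were not. Of 23 fits that each left out 1 library, JAG2 and WNT10A lost their calls in 15 and BMP5 in 14. BMP5 rose in CF from 4.72 ± 0.582 to 8.67 ± 1.24 CPM (n = 6 each). FZD2, a Wnt receptor outside the list, rose in CF (0.43 ± 0.07) with a difference of 0.50 ± 0.09 (adjusted p = 0.0037, and 0.0574 with GC and length offsets).

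Regulators of transcription and RNA were found in both directions. HDAC9, a class IIa histone deacetylase, was the 1 call of 15 in its list, against 0.894% of all tested genes. It was measured at 39.9, 40.7 and 44.2 CPM in WT in normal and 34.9, 37.8, 39.6, 37.2 and 34.9 CPM in high glucose. In CF it went from 43.1, 51.4 and 62.7 CPM to 27.8, 30.1 and 33.7 CPM. CF libraries overlapped WT in normal glucose and were all below WT in high glucose. The responses were -0.17 ± 0.07 (adjusted p = 0.123) and -0.76 ± 0.07, a difference of -0.59 ± 0.09 (adjusted p = 0.000926). SAMD4A, a translational repressor, and FNIP1, a partner of folliculin in nutrient sensing, fell in CF (-0.65 and -0.70). Their differences were -0.49 ± 0.08 (adjusted p = 0.0018) and -0.54 ± 0.09 (adjusted p = 0.00172).

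CEBPA, a factor that promotes differentiation, fell in WT from 5.49, 7.36 and 9.07 CPM to 4.22, 3.21, 3.69, 4.34 and 3.74 CPM, without overlap. In CF it stood at 4.54, 6.32 and 11.5 CPM in normal and at 7.45, 7.90 and 9.28 CPM in high glucose. The difference was 1.11 ± 0.21 (adjusted p = 0.00537, and 0.0306 with GC and length offsets). The CF normal glucose libraries 1 to 3 were all above libraries 4 to 6. FOXO6, a forkhead factor, fell in WT and rose in CF (difference 0.85 ± 0.17, adjusted p = 0.00571), and the orphan nuclear receptor NR2F6 rose in CF (difference 0.37 ± 0.08, adjusted p = 0.0096). Both calls were lost with GC and length offsets (adjusted p = 0.119 and 0.601).

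ESPN, which bundles actin in microvilli, fell in WT from 31.7, 34.3 and 40.1 CPM to 29.8, 26.8, 23.3, 27.8 and 29.9 CPM. It rose in CF from 34.6, 39.5 and 41.6 CPM to 39.7, 46.4 and 54.1 CPM. WT libraries did not overlap and CF libraries did, and the difference was 0.60 ± 0.10 (adjusted p = 0.000966). None of the 35 genes in the actin, myosin and contractility list was called, against 0.894% of all tested genes. FAM78A showed 7.04, 7.57 and 9.07 CPM in WT in normal and 7.46, 7.80, 7.64, 9.20 and 6.73 CPM in high glucose, and rose in CF from 3.11, 4.95 and 7.62 CPM to 9.22, 11.4 and 13.3 CPM. Its difference was 1.13 ± 0.20 (adjusted p = 0.0018), a call that held with GC and length offsets (adjusted p = 0.00736). The other 2-fold differences were CEBPA, PLIN5, TCIM (1.54 ± 0.37, adjusted p = 0.0311) and PSAPL1 (1.11 ± 0.28, adjusted p = 0.0435, and 0.0881 with GC and length offsets). TCIM was measured at 0.150 ± 0.0814 and 0.595 ± 0.165 CPM in CF cells (n = 6 each), which is few reads per library, against 15.03 ± 1.57 (n = 6) and 20.3 ± 2.70 CPM (n = 5) in WT. On the scale of log2(FPKM + 1) its difference was -0.10. MISP3 rose in CF (0.77 ± 0.13), with a difference of 0.88 ± 0.18 (adjusted p = 0.00993, and 0.0736 with GC and length offsets). SYT14, a synaptotagmin, fell in CF, with a difference of -0.48 ± 0.09 (adjusted p = 0.00269).

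APCDD1, a membrane-bound inhibitor of Wnt signalling, and MMP15, a membrane-type matrix metalloproteinase, were lower in CF than in WT at both glucose levels and rose with glucose in CF. APCDD1 was measured at 94.0, 99.8 and 106 CPM in WT in normal and at 101, 97.8, 98.3, 107 and 86.6 CPM in high glucose, and at 38.4, 39.3 and 44.4 CPM in CF in normal and 51.5, 54.5 and 57.7 CPM in high glucose. WT libraries overlapped between glucose levels and CF libraries did not. The responses were -0.03 ± 0.05 and 0.44 ± 0.05, a difference of 0.47 ± 0.08 (adjusted p = 0.00095, and 0.00164 with GC and length offsets). MMP15 went in CF from 76.7, 77.1 and 84.7 CPM to 98.7, 105.9 and 108 CPM. Its WT values were 106, 114 and 122 CPM in normal and 119, 114, 117, 127 and 114 CPM in high glucose. The CF libraries did not overlap, and the difference was 0.37 ± 0.07 (adjusted p = 0.00189, and 0.0851 with GC and length offsets).

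Stress genes gave 1 call each way, against 0.465% of all tested genes called below 0 and 0.428% above. HSPA1A is an inducible heat shock chaperone whose reads cannot be told from its near-identical copy HSPA1B with certainty. It rose in CF (0.52 ± 0.06), with a difference of 0.40 ± 0.09 (adjusted p = 0.0267), and was the 1 call of 19 cytosolic heat shock genes. That call was lost with GC and length offsets (adjusted p = 0.212) and in 10 of 23 fits that each left out 1 library. EDEM1, which marks misfolded glycoproteins for degradation, was the 1 call of 24 ER chaperone genes. It fell in CF (-0.18 ± 0.05), with a difference of -0.32 ± 0.07 (adjusted p = 0.0148). No call was made among 26 genes of the ATF4 list, 42 of cell cycle and replication, 37 of the respiratory chain or 50 ribosomal protein genes. At the 0.894% called over all tested genes, lists of this size often hold no call.

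**Figure D5:**
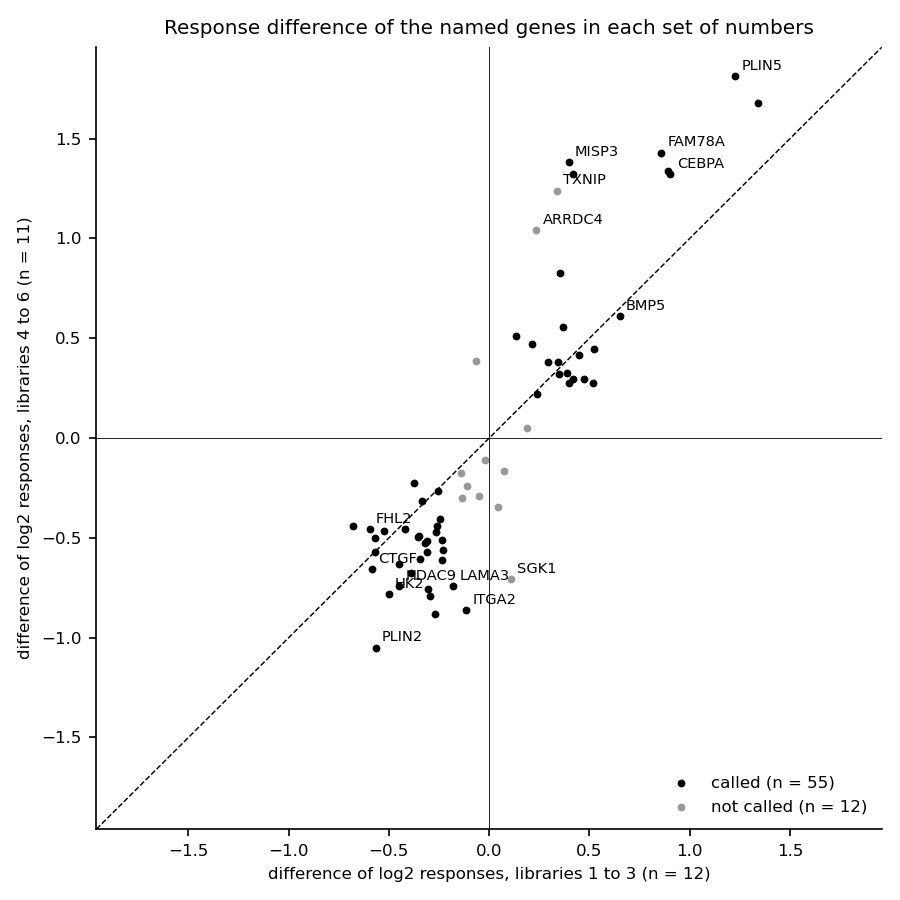
Response difference (CF minus WT, log2) of the 67 named genes computed in libraries numbered 1 to 3 (x axis, n = 12) and in libraries numbered 4 to 6 (y axis, n = 11), black where called over all 23 libraries (55 genes) and grey where not (12 genes). The dashed line marks equal values. PLIN2 reads -0.57 and -1.05, and FHL2 -0.60 and -0.46.

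The size of the difference varied between the number sets. The median absolute difference of the 146 genes was 0.34 in libraries 1 to 3 and 0.48 in libraries 4 to 6, and all 146 had the same sign in both sets, which the selection on all libraries largely fixes. JAG1 (-0.57 and -0.57), CTGF (-0.58 and -0.66) and FHL2 (-0.60 and -0.46) were nearer in size in each set, and ROR2 (-0.68 and -0.44) was larger in libraries 1 to 3. ITGA2 (-0.11 and -0.86), LAMA3 (-0.18 and -0.74), MISP3 (0.40 and 1.38) and, among genes not called, TXNIP (0.34 and 1.24) and ARRDC4 (0.23 and 1.04) were larger in libraries 4 to 6. Whether the sets differ was not tested.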

How the data were processed

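Poly(A) RNA of 16HBE cells was sequenced. The authors deposited whole-number read counts per gene and, in a second table, FPKM values. Reads were aligned with HISAT2 to hg38, per the submitters' processing notes; no source used here names the counter or the strand setting. Groups were taken from the sample titles and characteristics, and 23 libraries were used. Genes with enough reads (edgeR filterByExpr, minimum count 10, minimum total 15) were scaled by TMM and fitted with edgeR 4.0.16 (R 4.3.3; robust quasi-likelihood, 18 residual degrees of freedom) to group means plus a term for libraries numbered 1 to 3 against 4 to 6. The contrasts tested were the response in WT, the response in CF and their difference. P-values were adjusted by Benjamini-Hochberg over all 16338 genes, and a gene is called at an adjusted p under 0.05. Standard errors are the absolute log2 change over the root of F. Normalized levels are CPM on TMM-scaled library sizes. DESeq2 1.42.0, limma 3.58.1 on log2(FPKM + 1) and other settings were alternatives. The code was tested on simulated data.

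The model, the gene lists and the members were chosen with earlier results of these data known. Named genes were the 12 lowest p-values in each direction among called protein-coding genes of at least 5 CPM in a group, up to 3 called members of each list, and 17 genes named in any case; 60 genes met this rule. Another 8 (TCIM, PSAPL1, ERBB2, IL6, JAG2, BNIP3L, WNT10A and TEAD2) complete counts and were chosen after their values were seen. Of those 60, 1 is not reported here and stays in every count. The choice of the GC and length offsets was also made after seeing the data. Promoters were matched by symbol; VEGFA had no entry, and INSIG2, the next gene of its list, was shown in its place. GC content was taken from the longest GENCODE v29 transcript, and 16331 of the tested genes had a value.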

Additional observations from a re-analysis of the deposited data

Results flagged for a closer look

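Single libraries stood far from the rest of their group in 8 of 268 groups examined over the named genes (Dixon's test). For independent groups of like libraries chance gives about 1 in 20. Groups here hold both number sets and genes share libraries, so the count cannot be set against that rate. FNIP1 was lowest in WT high glucose library 3 at 44.2 CPM, and TEAD2 was highest in WT high glucose library 2 at 22.9 CPM. In CF high glucose, ERO1A was highest in library 3 at 2584 CPM, OCLN in library 1 at 136 CPM and SGK1 in library 4 at 9.59 CPM. MMP15 was highest in CF normal glucose library 3 at 84.7 CPM and lowest in CF high glucose library 6 at 98.7 CPM. CFTR was lowest in WT normal glucose library 6 at 659.9 CPM.

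The responses of the 2 lines differed by the edgeR test of the difference itself for 55 named genes. Differences below 0 (log2) were those of PLIN2 (-0.79), HK2 (-0.65), CTGF (-0.63), HBEGF (-0.60), HDAC9 (-0.59), ROR2 (-0.57), JAG1 (-0.56), INSIG2 (-0.56), FHL2 (-0.55), FNIP1 (-0.54), DUSP5 (-0.53), PPP1R3B (-0.52). Smaller ones were those of IL6 (-0.51), SAMD4A (-0.49), SYT14 (-0.48), ITGA2 (-0.47), ERO1A (-0.45), LAMA3 (-0.45), PHLDA1 (-0.43), PHLDB2 (-0.42), SOD2 (-0.42), F3 (-0.42), IL1A (-0.42), MAP4K4 (-0.42). The smallest among them were VEGFA (-0.38), LIF (-0.37), BIRC3 (-0.35), DDX60 (-0.34), EDEM1 (-0.32), FERMT2 (-0.31), BNIP3L (-0.30), STK4 (-0.25). Differences above 0 were those of TCIM (1.54), PLIN5 (1.54), FAM78A (1.13), CEBPA (1.11), PSAPL1 (1.11), MISP3 (0.88), FOXO6 (0.85), BMP5 (0.63), ESPN (0.60), FZD2 (0.50), and of APCDD1 (0.47), TEAD2 (0.45), NECTIN1 (0.40), HSPA1A (0.40), NR2F6 (0.37), MMP15 (0.37), VWA1 (0.37), SREBF1 (0.36), GPC1 (0.35), COL18A1 (0.34), WNT10A (0.34), JAG2 (0.34), ERBB2 (0.24). Of the 55, 34 kept their call when any 1 library was left out, 28 with GC and length offsets and 6 without the term for library numbers.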

How the results depend on the processing

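The count of 146 calls for the response difference depended on the model. It was 6 with no term for library numbers, 1 in libraries 1 to 3 and 387 in libraries 4 to 6 alone, 377 with a mean per group and number set, 353 with DESeq2 (144 shared), 254 with no filter on low counts, 88 on log2(FPKM + 1), 84 on log2(FPKM + 0.1) and 26 on log2(FPKM + 1) without a filter. It was 73 with GC and length offsets; the cause was not tested. DESeq2 scaling factors in edgeR (158), a stricter filter (179) and protein-coding genes alone (196) stayed within 1.5 times of it. Leaving out 1 library gave 61 (without WT high glucose library 3) to 326 (without CF normal glucose library 3). It gave 82 and 79 without WT normal glucose libraries 3 and 6, 87 without WT high glucose library 2, 79 and 76 without CF normal glucose libraries 5 and 6 and 90 without CF high glucose library 6. The glucose response in WT had 1418 calls as reported, 484 without the term, 424 and 823 in libraries 1 to 3 and 4 to 6 and 894 on unfiltered FPKM. The glucose response in CF had 2812, 1374 without the term and 1349 in libraries 1 to 3. Leaving out 1 library gave 1007 to 1612 and 2364 to 3016.

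With a replicate block for library number, 73 genes were called for the difference, all among the 146, and with the block and the GC and length offsets 23. Library numbers were not taken as pairs: deviations of same-numbered libraries correlated at 0.181 on average, against 0.179 for other numbers of the same set, 23 of 33 pairs exceeded 0.1, and 11 of 23 libraries correlated best with their own number.

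Signs turned for JAG2 in CF in libraries 4 to 6 (0.012), and for TCIM on log2(FPKM + 1), filtered or not (-0.10). Uncalled differences turned for SGK1 (0.11), KLF10 (-0.068), SLC2A1 (0.045) and CDH1 (0.076) in libraries 1 to 3. TJP1 turned with GC and length offsets (0.032) and with these and the block (0.036).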
